A study of Mus musculus with 6 samples.

Results

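The sites described here are variant calls on mouse chromosome 6 between 106000000 and 123000000 (GRCm38), the interval that holds the Rosa26 locus, Gt(ROSA)26Sor. A site was taken when the lists of all variants named it in both bone marrow and ear of at least 1 animal. This gave 1482 sites out of 77823 sites chosen the same way over the whole genome. Animal 54 carried 1228 of them, animal 108 carried 1292 and animal 136 carried 1268. Both the sharing between tissues and the calls themselves chose the sites, so counts of sites are a description and no test was made on them.

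The exomes came from genomic DNA of whole bone marrow and matched ear of 3 mice, 2 males (54 and 108) and 1 female (136), labelled strain C57BL/6. Every sample label gives the genotype R26CreERT2 Srsf2 P95H and in vivo tamoxifen treatment, so no untreated or wild-type animal stood beside them. The design text differs: it names 2 animals with R26-CreERT2 and 1 with hScl-CreERT and R26eYFP, all Srsf2P95H/+, without giving the animal numbers. Characteristics list 50 to 60 weeks as the age, whereas the protocol counts the same span from tamoxifen, up to the time the mice were moribund. Each animal is 1 individual, and each tissue of it is 1 library.

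Rosa26 is a widely expressed locus on chromosome 6 into which transgenes are placed by homologous recombination in embryonic stem cells. R26-CreERT2 puts a tamoxifen-activated recombinase there under the locus's own promoter, and R26eYFP puts there a reporter that Cre switches on. When a targeted allele made in stem cells of a different strain is crossed onto C57BL/6, the chromosome segment around the insertion tends to be inherited with it, and repeated backcrossing shortens that segment. A heterozygous site in such a segment shows about equal numbers of reads from each allele. The deposited lists hold unphased calls, so which alleles lay on the same chromosome copy was not read from them, and the origin of the variant alleles was not tested.

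Where a site fell in the RefSeq promoter window of a gene (250 bases before to 50 bases after its start, GRCm38.p6), the bases around it can be shown. Of 223 promoter windows in the interval, 7 held a member, with 11 members in all, 8 of them single-base changes. The sequences below are 29-base windows read 5′ to 3′ on the strand of the gene, with the variable base in capitals. They are shown because these single-base promoter sites, with those of Mical3 further on, are the members whose sequence context was given, and each pair differs in that base alone. Crbn encodes the substrate receptor of a ubiquitin ligase, Setmar a SET-domain methyltransferase, Edem1 a factor that sorts misfolded glycoproteins out of the endoplasmic reticulum, H1f8 the oocyte linker histone and Atp6v1e1 a subunit of the proton pump of lysosomes.
Crbn reference (chr6:106800227-106800255, minus strand): gggtcatggataacTttgggtttcttgtc
Crbn variant: gggtcatggataacAttgggtttcttgtc
Setmar reference (chr6:108064881-108064909, plus strand): agctatgtatctagTttaaaacagtggga
Setmar variant: agctatgtatctagCttaaaacagtggga
Edem1 reference (chr6:108828597-108828625, plus strand): ggggacaatggaccAgttcctggtgcgtc
Edem1 variant: ggggacaatggaccTgttcctggtgcgtc
H1f8 reference (chr6:115944885-115944913, plus strand): cattggttaagttcTgttgggaggtattt
H1f8 variant: cattggttaagttcCgttgggaggtattt
Atp6v1e1 reference (chr6:120822799-120822827, minus strand): ggcggagccaaggcAgaacttccgcgggc
Atp6v1e1 variant: ggcggagccaaggcGgaacttccgcgggc

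The Crbn, Setmar, H1f8 and Atp6v1e1 alleles were called in both tissues of all 3 animals. An insertion or deletion listed at 108064887, inside the Setmar window but not written there, was called in both tissues of animals 108 and 136. The Edem1 allele was called in both tissues of animal 108, at 41.7% of 12 marrow and 50% of 10 ear reads, and otherwise in the ear of animal 54, at 53.3% of 15 reads. The H1f8 variant, 32 bases before the start of the gene, made up 48.1% of 27 marrow reads and 58.1% of 31 ear reads in animal 54. In animal 108 it made up 56.2% of 32 marrow and 53.1% of 32 ear reads, and in animal 136 40% of 30 and 50% of 36. The 6 samples therefore lay on both sides of equal shares. The Crbn variant ranged from 38.1% (animal 54 marrow, 21 reads) to 60.8% (animal 108 marrow, 51 reads), and the Atp6v1e1 variant from 32.7% (animal 108 marrow, 55 reads) to 62.8% (animal 136 marrow, 43 reads).

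The promoter of Mical3, which encodes an actin-binding monooxygenase, differed from those. Its 3 single-base sites lie within 1 window of 28 bases, chr6:121081826-121081853, on the minus strand.
Mical3 reference: ccacGggGcagggggcagggggcGgggt
Mical3 variant: ccacAggAcagggggcagggggcTgggt
The variant sequence has all 3 changes written together, although the lists do not say that they share a chromosome copy. An insertion or deletion listed at 121081838, in the same window, is left out of it. That change was called in both tissues of animals 108 and 136 and in marrow of animal 54, at 60% to 80% of 5 to 11 reads. Over the 3 sites and 6 samples the variant share ran from 61.5% to 85.7%, above equal shares in every library. Depth there was low, from 10 to 21 reads per sample, and the lowest mapping quality was 32. The part of depth and of the repeated bases in these shares was not tested.

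Allele sharing was the first feature of the interval. Of the 1482 sites, 1076 (72.6%; 95% Clopper-Pearson interval 70.3 to 74.9) were called in both tissues of all 3 animals. The same share was 11.3% over the 1630 such sites on the rest of chromosome 6 and 4.72% over the 76341 sites on the rest of the genome. Outside the interval the animals' counts were unequal, at 31504, 48686 and 10487 sites of the rest of the genome in animals 54, 108 and 136. On the rest of chromosome 6, 1031 sites were of animal 108 alone. Unequal counts limit the share that all 3 animals can have, and their part in this contrast was not tested. Animals 54 and 108 alone shared 33 sites, 54 and 136 shared 53, and 108 and 136 shared 68. Sites of a single animal were 66 for 54, 115 for 108 and 71 for 136. Neighbouring sites are inherited together and can lie on the same reads, so these intervals, which cover counting error, treat linked sites as independent.

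Sites called in fewer animals were shallower, and most of those an animal lacked in 1 tissue were listed in its other tissue. The median depth was 55.7 reads at sites of all 3 animals, 21.2 reads at sites of 2 animals and 17.7 reads at sites of 1 animal. Insertions and deletions made up 8.36% of the first group, 24.0% of the second and 20.2% of the third. Among the 252 sites of a single animal, 148 appeared in 4 of the 6 lists, because each other animal had them in 1 tissue. Another 62 appeared in 3 lists and 42 only in both tissues of the animal concerned. Of the 254 sites that animal 54 lacked in at least 1 tissue, 208 were listed in its other tissue; the figures were 158 of 190 in animal 108 and 136 of 214 in animal 136. Depth at uncalled positions is not part of the lists, so an uncalled site does not show a reference allele.

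**Figure D1:**
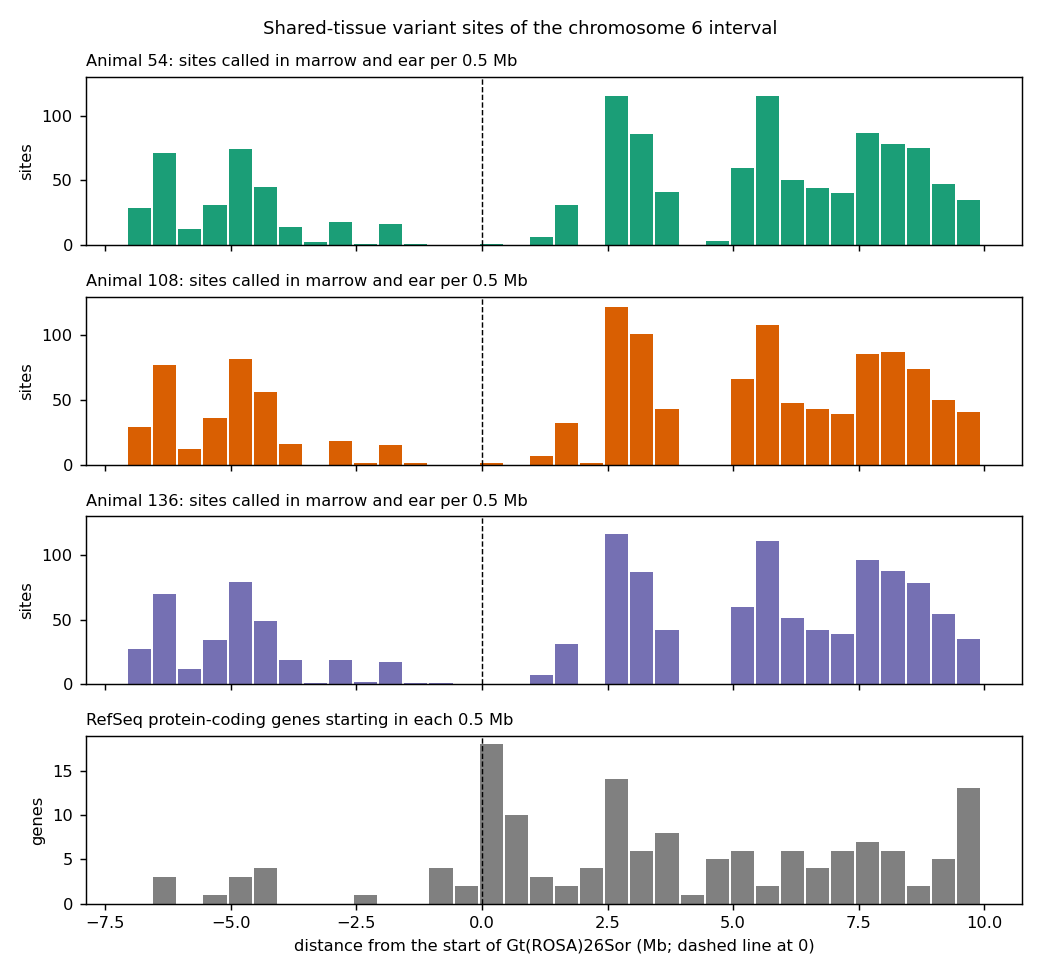
Number of sites called in marrow and ear per 0.5 Mb (y axis) against distance from the start of Gt(ROSA)26Sor in Mb (x axis, dashed line at 0), with 1 panel for each animal and a lower panel counting RefSeq protein-coding genes by start position. The 3 animals have peaks and gaps at the same distances, and the gene-dense windows beside Rosa26 hold almost no sites.

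Around Rosa26 itself the interval was nearly empty. Gt(ROSA)26Sor lies at 113067428 to 113077244. From 111500000 to 114000000 there were 4 sites, 1 of them shared by the 3 animals, although 35 protein-coding genes of RefSeq lie there; only 1 of those genes, Il17re, held a site. On the side before, from 106000000 to 111500000, there were 380 sites, and 11 of 13 genes held at least 1. On the far side there were 344 sites up to 118000000, with 26 of 44 genes holding at least 1, and 754 sites up to 123000000, with 45 of 57 genes doing so. The lists were not silent in the empty stretch: they held 110 calls of a single tissue there, at a median of 13 reads.

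No site at all was found over 1.04 Mb from 112423081 to 113464926, a span with 18 protein-coding genes. Those genes include Setd5, which starts beside Gt(ROSA)26Sor and encodes a chromatin regulator, Ogg1, the glycosylase that removes oxidised guanine, and Rad18, a ubiquitin ligase of damage tolerance. For sites shared by all 3 animals the gap widened to 2.55 Mb, from 111699706 to 114244721, and took in 34 genes, among them Vhl, Fancd2 and Atp2b2. Its left border was an intergenic change at 44.0% of 50 marrow reads and 53.1% of 81 ear reads in animal 54, 41.0% of 39 and 36.8% of 57 in 108, and 50.9% of 55 and 52.0% of 50 in 136. Its right border was an intronic change of Slc6a11, a GABA transporter, between 36.4% and 60.0% on 22 to 45 reads. So both borders were heterozygous in each sample.

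Of the 4 sites inside the empty stretch, the left border was the one called in all 3 animals, and the others rested on 8 to 15 reads per sample. An intron site of Il17re, an interleukin receptor gene, was listed in animal 54 at 23.1% of 13 marrow and 13.3% of 15 ear reads. A neighbouring Il17re base was listed in animal 108 at 26.7% of 15 and 18.2% of 11 reads. The fourth, between Ssu2 and Cav3, was listed in animal 136 at 30% of 10 marrow and 40% of 10 ear reads, and in the marrow of animal 54 at 50% of 8. A second gap without any member, 1.13 Mb from 116716308 to 117843221, held only 1 protein-coding gene, Cxcl12, which encodes the chemokine that retains blood stem cells in marrow.

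At the ends of the interval the last sites outside and the first inside were as follows. The first site inside, at 106138725 in an intron of Cntn4, was called in both tissues of animals 108 and 136, and the nearest outside, at 105789059 in the same gene, in animal 108. The last site inside, at 122742241 in the 5′ UTR of Slc2a3, was called in animal 108, and the nearest outside, at 123049804 beside Clec4b1, in animals 108 and 136. The sharing went on beyond the lower border: from 100000000 to 106000000, 63.7% of 157 sites were called in all 3 animals. Beyond the upper border it was 11.6% of 43 sites from 123000000 to 126000000.

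Heterozygosity was the second feature. A site counted as heterozygous when 20% to 80% of the reads of both tissues together carried the variant. For animals 54, 108 and 136 that held at 98.6%, 99.0% and 99.1% of the interval's sites, a mean of 98.9% ± 0.237 (SD, n = 3 animals). On the rest of chromosome 6 it was 92.0%, 95.6% and 91.4%, and on the rest of the genome 95.2%, 95.3% and 85.9%, lower in all 3 animals. The rest of the genome was not limited to autosomes here. The part of the sex chromosomes in these shares, with animals 54 and 108 male, was not tested. Of the 1076 sites in all 6 lists, 1026 (95.4%) lay between 20% and 80% in every sample taken alone. None lay below 20% in all 6.

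**Figure D2:**
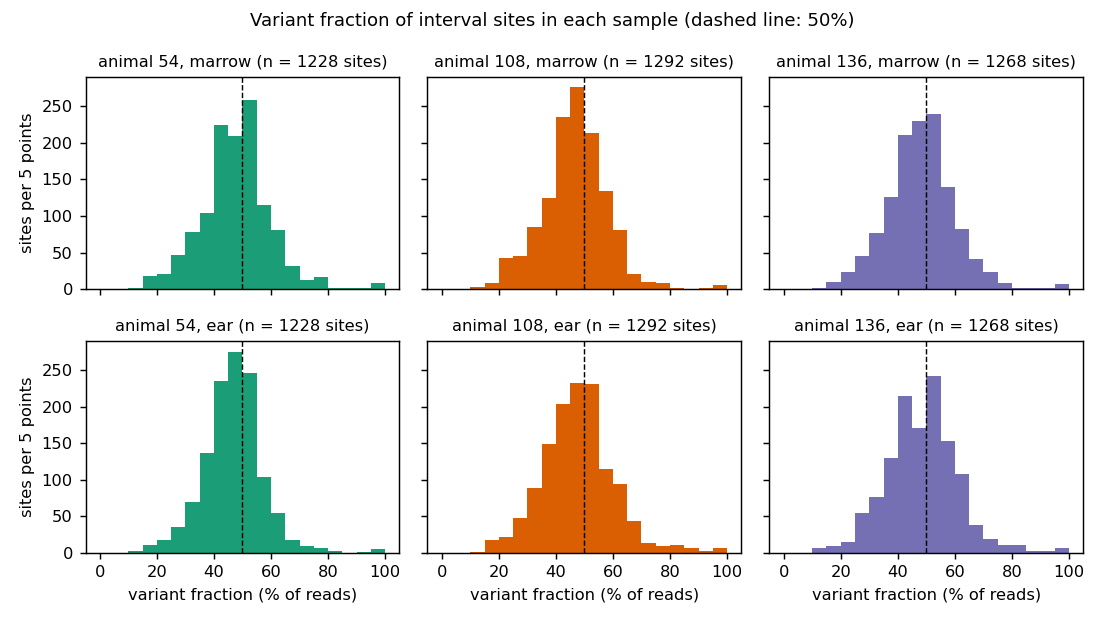
Histograms of the variant fraction, in percent of reads, at the interval's sites of each animal, with marrow in the upper row and ear in the lower row; the y axis counts sites per 5 percentage points and the dashed line marks 50%. Each of the 6 samples has a single mode near equal shares, and few sites lie near 100%.

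Homozygous calls, above 80%, were few and nearly all insertions or deletions. They made up 23 pairs of a site and an animal, of which 21 were insertions or deletions and 2 were the Mical3 promoter bases in animal 108. At 4 sites the variant made up 100% of reads in all 6 samples. A pair of them, 3 bases apart, lies in an intron of Dcp1b, an mRNA decapping factor, at 89 to 134 reads per animal. The third, between Phc1 and 1700063H04Rik, rested on 11 to 15 reads per animal, and the fourth, between Lrrn1 and Setmar, on 7 to 11. At that Lrrn1-Setmar position the authors' deposited table of VarScan calls gives 1 variant read beside 32 reference reads in the ear of animal 108, so the lists disagree there.

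The median variant fraction of heterozygous sites was close to equal shares in both tissues. Marrow of animals 54, 108 and 136 stood at 47.7%, 46.7% and 47.4%, and ear at 46.8%, 47.1% and 48.2%. The tissue that was higher differed between animals: marrow minus ear was 0.867, -0.392 and -0.877 percentage points for 54, 108 and 136. The mean difference was -0.134 ± 0.90 (SD, n = 3 pairs; exact two-sided sign-flip permutation test, p = 0.75, where 3 pairs cannot go below 0.25). At autosomal heterozygous sites of the rest of the genome the medians of 54, 108 and 136 were 46.2%, 46.9% and 42.1% in marrow and 46.5%, 46.7% and 42.9% in ear.

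Single sites were compared between marrow and ear with Fisher's exact test on reads, adjusted by Benjamini-Hochberg over all sites of the animal. These p-values compare 2 libraries, not conditions. In animal 54, 2 of 1211 members were called, where 0.0346% of all sites tested were. In animal 108 none of 1277 was called by this test (background 0.0327%), and in animal 136, 2 of 1243 were called (background 0.0181%). The backgrounds include the members, and in animal 136 the 2 called members were the only sites called. At an unadjusted p under 0.05 by the same test there were 99, 110 and 129 members of animals 54, 108 and 136. That is 8.18%, 8.61% and 10.4% of members, against 8.41%, 7.43% and 6.22% of all sites tested. The counts of called sites are too small to set the shares of members apart from these backgrounds. At the unadjusted level the share of members was above that of all sites in animals 108 and 136, most in 136, and below it in animal 54. Neighbouring sites can lie on the same reads and are not independent, and no test was made of these shares. All of them lie above 0.05, the most expected of this test for independent reads with no difference between tissues. Single-site p-values, here and between animals, can therefore be too small. Whether reads were independent was not tested.

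The called sites were an intron site of B4galnt3 and of Slc6a13 in animal 54, and a Cntn4 missense change and a Slc25a18 intron site in animal 136. B4galnt3 encodes a glycosyltransferase; its site at 120209000 had 37 variant reads of 120 in marrow and 85 of 146 in ear (30.8% and 58.2%; Fisher's exact test, adjusted p = 0.0384). Slc6a13 encodes a GABA transporter, and its site at 121335898 had 43 of 56 in marrow and 60 of 141 in ear (76.8% and 42.6%; Fisher's exact test, adjusted p = 0.0446). In the other animals both sites stayed between 42.4% and 55.7%. Cntn4 encodes an adhesion molecule of neurons, and its I493V change had 31 of 52 reads in marrow and 7 of 47 in ear of animal 136 (59.6% and 14.9%; Fisher's exact test, adjusted p = 0.0442). Slc25a18, a mitochondrial glutamate carrier gene, had variant shares of 49.5% in marrow and 23.7% in ear of animal 136 at 120785959 (94 and 28 variant reads; Fisher's exact test, adjusted p = 0.0442). With a mapping quality of at least 40 required, 1 of the 4 calls remained, Cntn4 I493V, at an adjusted p of 0.0232 by Fisher's exact test.

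Between animals, reads of both tissues were added and members called in both were compared in the same way. Animals 54 and 108 differed at 19 of 1100 members (background 5.62% of all sites tested). Animals 54 and 136 differed at 17 of 1115 (background 4.44%), and animals 108 and 136 at 15 of 1132 (background 1.79%). These 51 calls fell on 41 sites in or beside 27 genes, and each animal is used in 2 of the 3 comparisons. Neighbouring sites can lie on the same reads, so the calls are not all separate observations. In 49 of the 51 both animals were heterozygous, with a median difference of 16.9, 21.0 and 18.2 percentage points in the 3 pairs.

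The largest difference was a deletion in the 5′ UTR of Slc2a3, the gene of the glucose transporter GLUT3, at 122742237. It made up 46.2% of marrow and 51.5% of ear reads of animal 54, and 67.5% and 39.3% of those of animal 136. By contrast it made up all 133 marrow reads and all 95 ear reads of animal 108. Over both tissues the shares were 49.2% of 236 reads in animal 54, 54.2% of 227 in 136 and 100% of 228 in 108 (Fisher's exact test, adjusted p = 6.71e-42 for 54 against 108 and 3.93e-36 for 108 against 136). It is the last site shared by the 3 animals, and the 17 other sites shared from 122606717 on stayed between 27.8% and 57.4% in animal 108. A further Slc2a3 base, at 122742241, was listed in animal 108 alone, at 5 of 12 marrow and 13 of 15 ear reads.

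Tmcc1, the gene of a coiled-coil membrane protein of the endoplasmic reticulum, held the other strong difference between animals. It had 24 members, 5 of them in all 6 lists. A further 15 were called in both tissues of animal 108 and in no other list, all in exon 3 of 5, over 640 bases from 116043092 to 116043731. Of these, 5 were missense (E456D, A440V, R352Q, N321K and Q288K) and 10 synonymous. Their variant fraction had a median of 25.7% and ran from 17.4% to 34.3% over 121 to 639 reads, at a mapping quality of 40 or 41. Marrow and ear had medians of 25.8% and 25.6%.

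**Figure D3:**
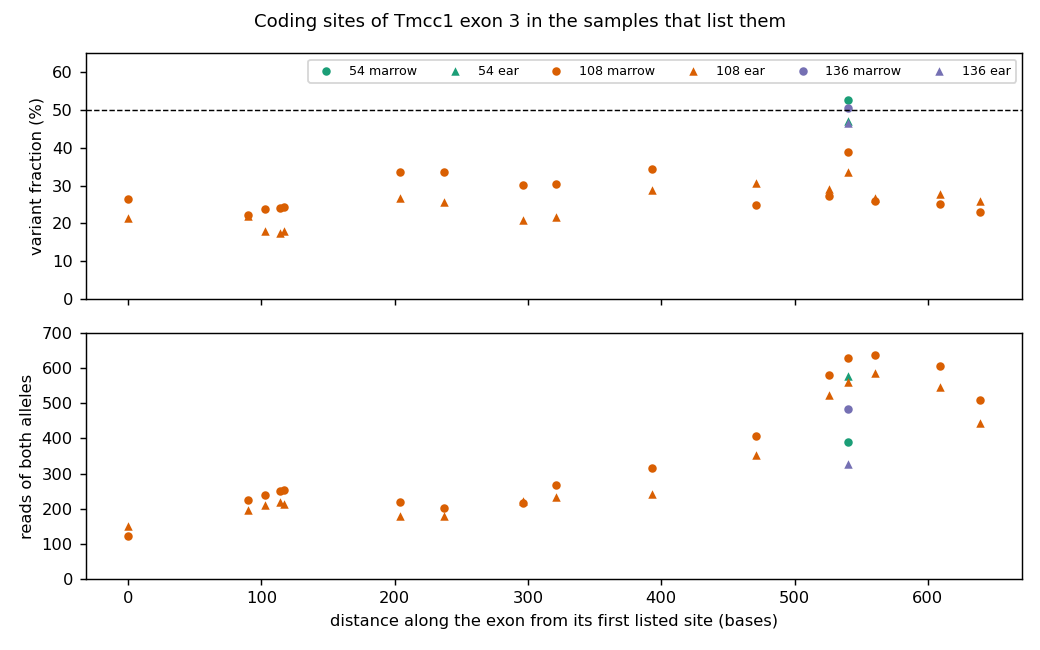
Variant fraction in percent (upper panel) and reads of both alleles (lower panel) at coding sites of Tmcc1 exon 3, against distance along the exon in bases, in the samples that list each site (circles marrow, triangles ear, colour by animal). The sites of animal 108 alone sit from 17.4% to 34.3%, below the dashed line at 50%, while the shared site has points of all 3 animals.

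In the same exon a synonymous site at 116043191 was shared by all 3 animals. Its fraction was 49.4% of 966 reads in animal 54 and 48.9% of 812 reads in animal 136, but 36.4% of 1191 reads in animal 108 (Fisher's exact test, adjusted p = 8.33e-08 for 54 against 108 and 3.74e-06 for 108 against 136). Depth there was high in all animals, 8.42 to 13.1 times the median member of the same sample, with the highest ratios in both tissues of animal 108. The part of depth in these fractions, and whether all of these reads came from Tmcc1, was not tested. Without the 15 sites of animal 108 alone, the interval held 46 protein-altering and 132 synonymous sites, a ratio of 0.348. The authors' deposited table of VarScan calls lists 1 of these Tmcc1 members of animal 108, at 116043617, as somatic, with 52 variant and 171 reference reads in marrow and 30 and 159 in ear.

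Protein changes were the third feature. SnpEff annotations of moderate or high impact marked 51 sites in 24 genes as protein-altering: 44 missense changes, 4 in-frame insertions or deletions and 3 of high impact. Of these, 43 were called in all 3 animals, 3 in 2 animals, and 5, the Tmcc1 changes, in 1. At the 43 shared sites the variant fraction ran from 14.9% to 84.2% with a median of 47.6%, and 256 of the 258 values lay between 20% and 80%. The interval held 142 synonymous sites, giving 0.359 protein-altering sites for each synonymous one, against 0.635 (4776 to 7525) on the rest of the genome. For each animal alone the ratio was 0.352, 0.350 and 0.354, against 0.727, 0.597 and 0.879 outside the interval in animals 54, 108 and 136. Among sites shared by the 3 animals it was 0.339 inside and 1.46 outside. The lists for the rest of the genome differ in size between animals, and no test was made of these ratios.

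**Figure D4:**
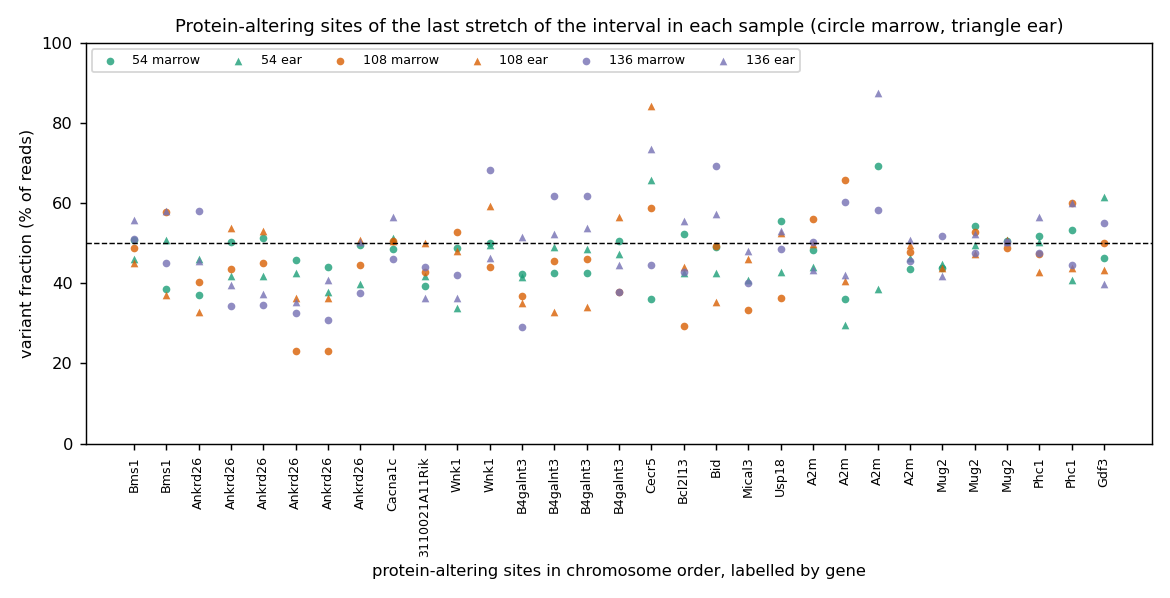
Variant fraction in percent of reads (y axis) at the 31 protein-altering sites from 118000000 to 123000000 in chromosome order (x axis, labelled by gene), in each sample that lists the site (circles marrow, triangles ear, colour by animal; dashed line at 50%). Most sites have 6 points around 50%, and the highest point is the A2m change E1173A in the ear of animal 136, at 87.5%.

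The protein changes were uneven along the interval. From 106000000 to 111500000 there were 3 protein-altering and 30 synonymous sites, from 114000000 to 118000000 there were 17 and 38, and from 118000000 to 123000000 there were 31 and 74. Itpr1, the gene of the inositol trisphosphate receptor of the endoplasmic reticulum, held 100 members, more than any other gene, with 13 synonymous and no protein-altering one. Its 76 sites shared by the 3 animals had sample medians from 44.8% to 50.3%. Grm7, which encodes a metabotropic glutamate receptor, held 20 members with 7 synonymous and none altering the protein. Ankrd26 came next to Itpr1 with 94 members, and had 13 synonymous and 6 missense ones.

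Mug2 encodes a murinoglobulin, a protease inhibitor of plasma that belongs to a multigene family, and the mapping quality of its sites was low. Its allele counts are therefore uncertain, and whether reads of related genes are among them was not tested. Of its high-impact sites, the premature stop Q291* was called in both tissues of animals 54 and 136 and in the ear of animal 108, at 41.9% to 51.9% of reads, with a lowest mapping quality of 17. The loss of the stop codon, p.Ter1452Argext*?, stood at 48.9% to 50.9% in the 6 samples on 508 to 1054 reads, with a mapping quality of 26. A missense change, G541R, ran from 47.4% to 54.2% at a mapping quality of 25. Typical members of the interval had a median mapping quality of 41 to 42.

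Further missense changes, grouped here after their values were seen, lay in genes known from blood, inflammation or cell death. Ankrd26 is a gene whose human counterpart is altered in an inherited low platelet count. Its 6 missense changes (F1586L, S785L, S785T, E522Q, S521R and T426S) were shared by the 3 animals, between 23.1% and 57.9%. Alox5, the lipoxygenase that starts leukotriene synthesis, carried V646I at 40.2% to 59.0%. Bid, which links death receptors to mitochondria, carried E14K at 35.4% to 69.2%, and its Bcl-2 family relative Bcl2l13 carried T66S at 29.3% to 55.6%. Usp18, the protease that removes the interferon-induced ISG15 tag, carried V115L at 36.4% to 55.4%. Each was listed in all 6 samples.

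Protein changes in 4 more genes were also shared by the 3 animals. Setmar S273R stood at 37.7% to 48.9%, and Mbd4, a glycosylase for mismatched thymine, carried D129N at 38.5% to 53.7%. Phc1, a Polycomb protein, carried K768E at 42.7% to 56.5% and an insertion of a pair of glutamines (p.Gln438_Gln439dup) on 5 to 27 reads. Gdf3, a ligand of the TGF-beta family, carried R225P at 39.7% to 61.4%, the protein-altering site nearest the upper end. These ranges span equal shares, apart from Setmar, where all 6 samples lay below 50%.

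Washc2, named Fam21 in the lists, encodes a subunit of the WASH complex on endosomes and carried L385S, P556S, A954V and Q1086E. P556S was lower in animal 108, at 204 of 528 reads, than in animal 54, at 299 of 588 (38.6% and 50.9%; Fisher's exact test, adjusted p = 0.00157). Wnk1, a kinase that controls ion transport, carried R2088Q and N958H, and Cacna1c, the pore of an L-type calcium channel, carried A2034V at 46.2% to 56.6%. A2m, the plasma protease inhibitor alpha-2-macroglobulin, carried A807V, R893C and M1426T in all animals and E1173A in animals 54 and 136. Hdhd5, named Cecr5 in the lists, carried R33Q from 36.1% to 84.2% on 19 to 45 reads. Protein-altering sites were also found in Bms1, Zfand4, Mical3 and 3110021A11Rik.

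In 2 codons a pair of missense changes was annotated base by base. In B4galnt3 the changes I461T and I461V and a synonymous change in the codon before them occupy 3 adjacent bases, 120215392 to 120215394. Their variant shares were 46.4%, 46.1% and 45.5% in animal 54 on 343 to 345 reads. Animal 108 had 39.2%, 40% and 39.9% on 296 to 300 reads, and animal 136 had 57.8%, 58.4% and 59.4% on 251 to 256 reads. Neighbouring bases were therefore nearly equal within each animal, while animal 136 stood above equal shares and animal 108 below. All 3 bases differed between animals 108 and 136 (Fisher's exact test, adjusted p = 0.00155, 0.00174 and 0.000565). Adjacent bases can lie on the same reads, so these 3 p-values are not separate observations. In Ankrd26, S785L and S785T likewise had 184 and 181 variant reads in animal 54. The counts were 145 and 147 for 108, and 89 and 87 for 136. Read together, such bases would give another amino acid than either annotation, which the unphased lists do not resolve.

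Lists of genes chosen by function were counted against the 147 protein-coding genes of the interval, of which 83 (56.5%) held a member and 23 (15.6%) a protein-altering one. Of 6 DNA repair genes 2 held a member, Setmar with 7 and Rad52 with 2; Rad18, Ogg1, Fancd2 and Tatdn2 held none, and all of these lie within 0.630 Mb of Rosa26. Setmar was the only 1 of these 6 listed genes (16.7%) with a protein-altering site. Mbd4, the glycosylase for mismatched thymine, was not on the list and carried D129N in all 3 animals. Of 18 genes of blood and immune signalling 9 held a member, led by Il5ra with 20 (none protein-altering) and Usp18 with 14, and 2 of the 18 (11.1%), Bid and Usp18, held a protein-altering one. Of 5 listed chromatin genes 2 held a member, Cecr2 with 17 members and Kdm5a with 2, none altering the protein. Phc1, which encodes a Polycomb protein, was not on this list and held 2 protein-altering sites, both in all 3 animals. Of 9 genes of neurotransmitter transport and channels 8 held a member, and the missing one was Atp2b2, which lies in the empty stretch. Itpr1, Cacna1c, Cacna2d4, Slc6a13 and Grm7 had 20 members or more. Cacna1c, 1 of the 9 (11.1%), held a protein-altering one.

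By position in genes, 59.9% of the members were intronic, 9.58% synonymous and 2.97% missense, against 51.1%, 9.86% and 5.84% on the rest of the genome. Of the members 1304 were single-base changes, with 2.09 transitions for each transversion (1.97 on the rest of the genome). The other 178 were 96 insertions and 82 deletions of 3 bases at the median. No member fell in a RefSeq miRNA hairpin.

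Members also entered the authors' somatic lists, which compare marrow with ear. In the authors' deposited table of VarScan calls 54 calls of the interval are marked somatic, 33 of them at members. Another 17 are marked loss of heterozygosity, 14 of them at members. Such calls on the rest of the genome are not given here, so whether members were called more or less often than other sites is not known. These calls are summed over the animals, so a site called in several animals counts each time. At the 33 calls the deposited table gives a median of 50.0% in marrow and 12.5% in ear, and 4 had no variant read in ear. At the 14 it gives 76.8% in marrow and 36.6% in ear. The calls were marked for a difference between the tissues, so these medians describe that selection. Members were set over all animals, so a call could fall on a member that its own animal did not list in both tissues. The Rpl32 site at 115812171, called somatic in animal 108, was listed in both tissues of animal 54 and not in both of animal 108. The authors' deposited table of Strelka calls has 57 single-base and 2 indel calls in the interval, none at a member. Members were chosen by being listed in ear as well as marrow, so this absence partly follows from the choice. Cntn4 I493V and the Slc6a13 intron site are among the VarScan calls, as somatic in animal 136 and as loss of heterozygosity in animal 54 in the authors' deposited table.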

How the data were processed

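Exome capture (Agilent SureSelect Mouse Exon, 50 Mb) was sequenced on the Illumina X10, at a mean of 100x as the labels' protocols state. Per the submitters' processing notes, SAMtools, Bowtie2 and FastQC and the builds mm9 and GRCm38 are listed with no role. The deposited lists of all variants hold, per the file headers, SAMtools calls annotated with SnpEff, with depth, mapping quality and a read count per allele; the lowest depth listed was 11. The deposited VarScan tables give read counts and a somatic p-value. Filters of VarScan and Strelka were not given in the sources used here. All 125 single-base sites of chromosome 6 inside RefSeq promoter windows carried the GRCm38.p6 base as reference, so coordinates are taken as GRCm38.

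From these lists, sites were matched by position and alleles, and the variant fraction is variant reads over reads of both alleles. Each site kept its annotation of highest impact. Median depth at members was 38 to 68.5 reads per sample. Site tests needed 10 reads per sample and used Fisher's exact test (SciPy 1.17.1, two-sided). Benjamini-Hochberg adjustment was over all sites with a threshold of 0.05, after a check on simulated reads. The simulated reads were independent, so that check does not cover copied molecules or linked sites. The sources describe no molecular identifiers, so reads can be copies of a molecule and intervals cover counting error only. Marrow and ear with the same number come from 1 animal, per the labels. Their deviations from the tissue means over 1076 sites correlated at r = -0.00483, 0.027 and -0.0575 (across sites, a description). Marrow and ear of different animals correlated at r = -0.0551 to 0.0599. These values therefore do not tell matched from unmatched tissues. The named genes are those with high-impact changes, the 15 with most protein-altering sites, list genes with such a site, genes of called sites, and borders of empty stretches. Other genes in the text illustrate a count and were chosen after their values were seen. The members and lists were chosen with earlier results of these data known. Some protein-altering sites are counted but not reported here.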

Additional observations from a re-analysis of the deposited data

How the results depend on the processing

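The marrow minus ear difference of the median fraction, -0.134 percentage points, changed sign to 0.232 with only the stretch from 118000000 on and ran from -0.635 to 0.237 when animals were left out in turn (0.237 without animal 136); without the replicate block, by which marrow and ear of an animal are paired, it stayed at -0.134 (exact permutation p = 0.80). The 4 tissue calls became 1 at a mapping quality of at least 40, and 2 to 4 when an animal was left out: 2 without animal 54 and 2 without animal 136. At that mapping quality the B4galnt3 and Slc6a13 sites had adjusted p-values of 0.0531 and 0.0727 by Fisher's exact test, and the Slc25a18 site was not tested. The 51 calls between animals became 31 with marrow reads only and 26 with only the stretch from 118000000 on. The heterozygous share, 98.9%, was 99.2% at 20 or more reads, 99.4% for single-base sites, 98.6% with only the stretch from 118000000 on, 99.5% by the allele frequency field of the lists, and 98.8% to 99.0% when animals were left out. The share called in every animal, 72.6%, was 75.6% for single-base sites, 68.2% at a mapping quality of at least 40, and 78.6% to 82.6% over 2 animals. Of all values recomputed under an alternative, 42 were unchanged by the limits set, 21 moved and 2 changed sign; using only sites called in all 6 samples was an alternative chosen after seeing the data. Depth limits what single sites show, and 1 library per tissue of each animal leaves the spread between libraries of a tissue unknown.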

Other observations

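Other stretches of chromosome 6 outside the interval differed in which animals shared them. From 92000000 to 96000000, 136 sites were called in both tissues of at least 1 animal. Animal 54 had 111 of them, animal 136 had 119 and animal 108 had 9, and 100 were in 54 and 136 but not in 108. Their median variant fraction was 49.4% in animal 54 and 46.8% in animal 136. From 142000000 to 148000000, 926 sites were called, of which animal 108 had 915, animal 54 had 7 and animal 136 had 14. The median fraction in animal 108 there was 46.4%, and 905 of its 915 sites were heterozygous. Between 96000000 and 100000000 only 10 sites were called, and the count rose to 60 in the last Mb before the interval.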
